A study of Mus musculus with 9 samples.

Results

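Expression of 10 genes of drug and sterol oxidation was followed in mouse liver fibroblasts and hepatic stellate cells (HSCs). They were taken by gene symbol from the 24453 genes of the deposited table, and the set was drawn up when earlier results of these data were known. All 10 were found, and all 10 passed the filter on low counts that 13651 genes passed. The set holds the cytochrome P450 genes Cyp2e1, Cyp1a2, Cyp1b1, Cyp2c29, Cyp2d9, Cyp2f2, Cyp3a11, Cyp3a13 and Cyp7b1, out of 99 P450 genes in the table, and Por. Por encodes a reductase and is not a P450 itself, and Cyp7b1 acts on oxysterols rather than on drugs.

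RNA sequencing covered 3 groups of 3 libraries, all from livers of C57BL/6J mice, and the RNA of each library came from a pool of 3 to 5 animals. HSCs were obtained from normal livers of wild-type mice by density gradient, without a sort for a marker. The paper judged their purity by cell shape and autofluorescence. For HSCs and for both kinds of fibroblasts, a low-speed spin intended to remove hepatocytes came first. CCl4-fib were sorted as CD45-negative, GFP-positive cells from Col1a2-GFP Tg mice, in which a collagen promoter drives green fluorescent protein, after carbon tetrachloride (CCl4) given 2 times per week for 8 weeks. NASH-fib were sorted in the same way from Col1a2-GFP Tg mice that also lacked the melanocortin 4 receptor (MC4R-KO) and had eaten Western diet for 20 weeks. The MC4R-KO genotype and diet of NASH-fib and the toxin of CCl4-fib each occur in 1 group. So do the wild-type genotype of HSCs, without the GFP transgene, and their way of isolation. The parts of these factors in a difference cannot be told apart. The MC4R-KO mice were males that started the diet at 8 weeks of age, and the ages of the other mice are not given in the sources used here. The sort selects cells in which the collagen promoter is active. The groups are compared below to see how the P450 genes stood in fibroblasts of these 2 kinds of liver fibrosis and in steady-state HSCs.

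P450 enzymes are haem proteins of the endoplasmic reticulum that insert oxygen into drugs, toxins, steroids and fatty acids, using electrons that the reductase Por passes on from NADPH. In the liver the drug-oxidizing forms are made chiefly by hepatocytes, and several of them, Cyp2e1 and Cyp1a2 among them, are most abundant around the central vein, whereas Cyp2f2 is a gene of periportal hepatocytes. Cyp2e1 turns CCl4 into a reactive radical, which is how the toxin injures pericentral hepatocytes, while Cyp1b1 is known as a P450 of mesenchymal and other extrahepatic cells.

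The libraries held 3071070 to 3825522 reads on genes in HSCs, 4687349 to 5634273 in CCl4-fib and 3289758 to 5021156 in NASH-fib. Values are normalized signals with the same total in each library, in which 3 reads are worth 2.38 to 4.37. All 12 stellate cell markers were read in every library. Their summed value was 57710 to 64100 in HSCs, 9422 to 23100 in CCl4-fib and 20070 to 32640 in NASH-fib. Of this sum, Rgs5 alone had 14708 to 27511 in HSCs, 2296 to 13715 in CCl4-fib and 15987 to 29830 in NASH-fib. The mean log2 level of the 12 markers was 10.51 to 11.1 in HSCs, 7.71 to 8.74 in CCl4-fib and 7.85 to 8.83 in NASH-fib. Markers of activated fibroblasts, such as Col1a1, summed to 7928 to 13700 in HSCs, 57060 to 66030 in CCl4-fib and 30640 to 35270 in NASH-fib. None of 15 hepatocyte markers, which include Alb and Apoa1, was at 0 in any library, and their summed value was 20140 to 39190 in HSCs, 2369 to 4427 in CCl4-fib and 6537 to 28080 in NASH-fib. The hepatocyte markers therefore moved with most of the P450 genes, and beside the values given with these markers their part in the results was not tested. In bulk samples fewer cells of a type and less RNA per cell cannot be told apart. At most 3 reads were counted per position, and Cyp2e1 reached 5.03, Cyp3a11 4.60, Cyp2c29 2.30 and Cyp2d9 1.56 reads per base in their highest library, so that high values of these genes are flattened.

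In CCl4-fib, 7 of the 10 genes were lower than in HSCs and the other 3, Cyp1b1, Por and Cyp7b1, were higher, and for all 10 no library of one group lay within the range of the other. Of all genes tested, 11.7% were called lower and 16.2% higher in this comparison, and the libraries lay apart downward for 20.9% and upward for 27.8%. In NASH-fib, Cyp1a2 was lower and Cyp1b1 higher than in HSCs, where 4.3% of all genes were called lower and 8.23% higher, and the other 8 were not called. Between the fibroblasts, Cyp2e1 was higher and Cyp7b1 lower in NASH-fib, against 4.97% of all genes called higher and 5.66% lower. A gene was called at a change of at least 2-fold and an adjusted p under 0.05 with limma and Benjamini-Hochberg adjustment over all 13651 genes. The median log2 fold change of the 10 genes was -4.24 for CCl4-fib against HSCs, -0.70 for NASH-fib against HSCs and 2.24 for NASH-fib against CCl4-fib, beside medians of 0.18, -0.02 and -0.11 over all genes tested. Both fibroblast groups are compared with the same HSC libraries, and each group enters 2 of the 3 comparisons. With edgeR's TMM scaling the medians over all genes were 0.00 for CCl4-fib against HSCs and 0.14 for NASH-fib against CCl4-fib, so small differences depend on the scaling. In the latter comparison edgeR called 802 genes higher and 563 lower, against 678 and 773 with limma.

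**Figure D1:**
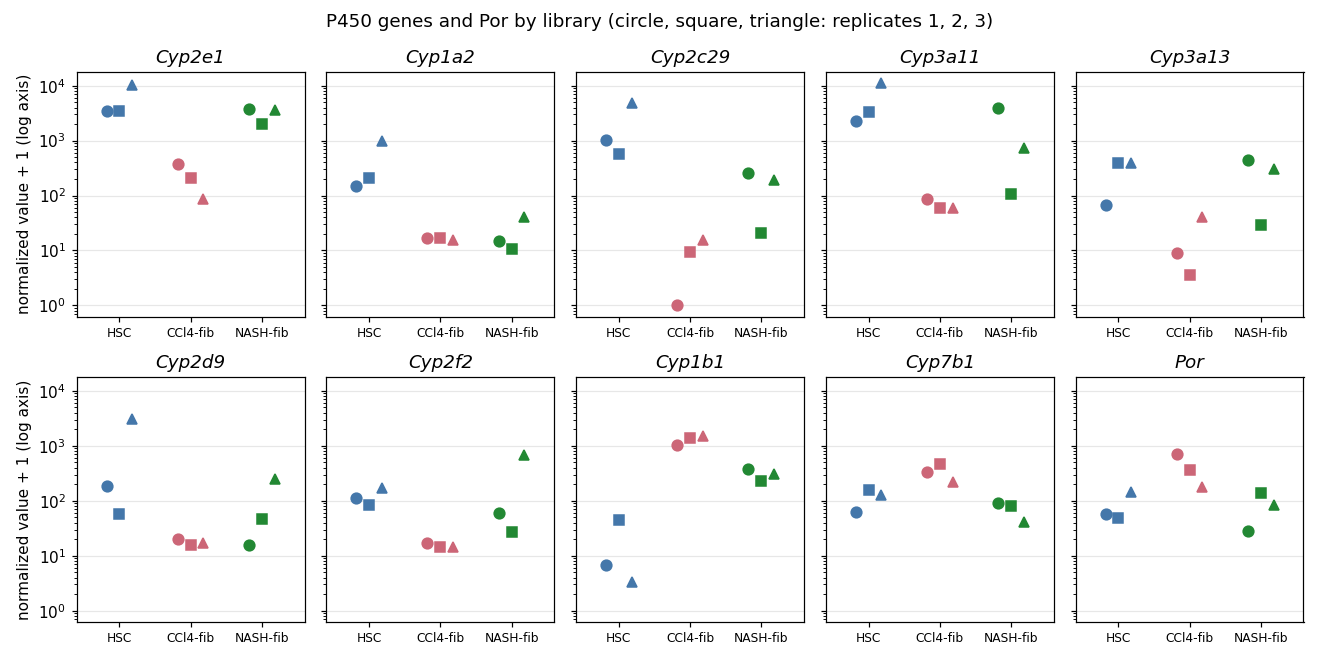
Normalized value plus 1 (log axis) of the 9 P450 genes and Por in each of the 9 libraries, with circles, squares and triangles for replicates 1, 2 and 3. The CCl4-fib libraries lie below all HSC libraries for 7 genes and above them for Cyp1b1, Cyp7b1 and Por.

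**Figure D2:**
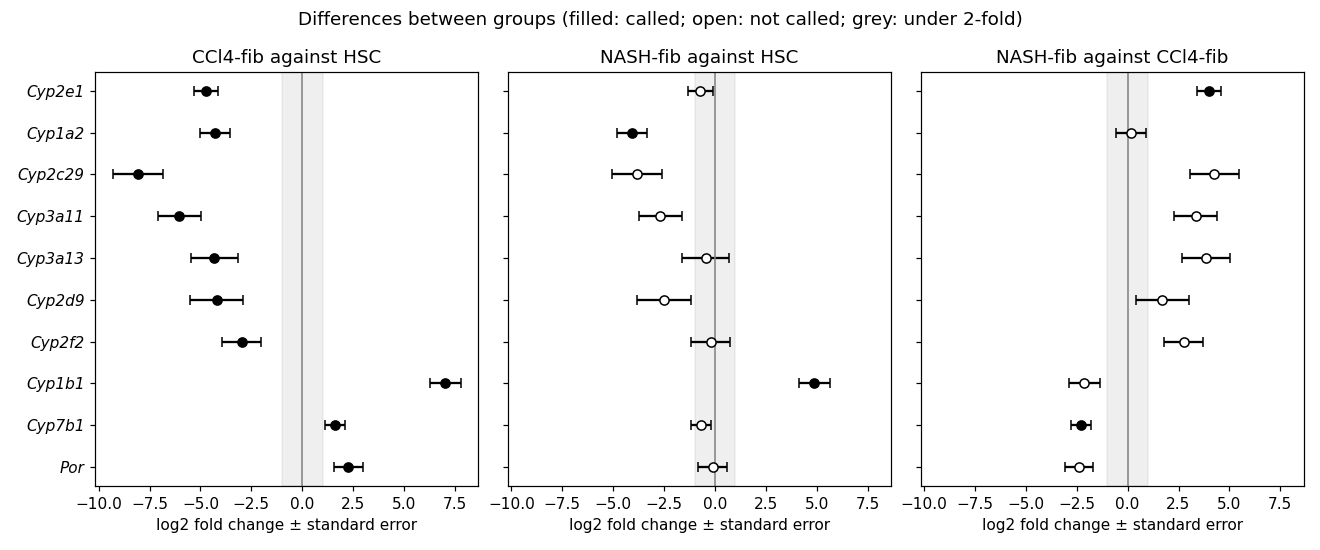
Log2 fold change (x axis) with its standard error for each gene in the 3 comparisons, filled where the gene was called. All 10 genes are filled for CCl4-fib against HSCs, and 2 in each of the other comparisons.

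The order of levels differed between the groups. Per kb of exon, Cyp2e1 had the highest mean value in HSCs, 3341 ± 2311 (SD, n = 3), followed by Cyp3a11 with 2747 ± 2394 (SD, n = 3), and Cyp1b1 the lowest, 3.38 ± 4.47 (SD, n = 3). In CCl4-fib the order began with Cyp1b1 at 259.7 ± 49.6 (SD, n = 3) and Por at 165.0 ± 106.1 (SD, n = 3), and ended with Cyp2c29 at 4.29 ± 4.06 (SD, n = 3). In NASH-fib Cyp2e1 came first again at 1831 ± 561 (SD, n = 3), and Cyp1a2 came last at 11.3 ± 8.83 (SD, n = 3). Neighbours in these orders overlapped in their libraries, except Por and Cyp1b1 in HSCs and, in CCl4-fib, Cyp2e1 and Cyp3a11, Cyp3a11 and Cyp2d9, and Cyp2d9 and Cyp1a2. Of the scaled reads on all 9 P450 genes, Cyp1b1 held 0.079%, 0.530% and 0.00766% in HSC replicates 1, 2 and 3. It held 54.9%, 64.1% and 77.2% for CCl4-fib and 4.14%, 8.97% and 4.92% for NASH-fib. These are shares of reads, which also depend on the length of each gene.

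The promoters of 4 genes are shown because the genes represent the directions found: Cyp2e1 and Cyp1a2 were lower in CCl4-fib than in HSCs, and Cyp1b1 and Por were higher. Each is the stretch of 120 bases before the gene's start in RefSeq on GRCm38.p6, the assembly of mm10, 5′ to 3′ on the gene's strand. For Cyp2e1 and Cyp1b1 that start lies upstream of the one given with the gene below. For Cyp1a2 and Por the starts coincide. Capitals mark matches to 4 motifs, each searched on both strands. The letters TATAAA stood for the box that positions the start of transcription, and the letters CCAAT for another common promoter element. The letters GGGCGG were those of the box bound by Sp1, and GCGTG those of the core bound by the dioxin receptor Ahr with Arnt. Cyp2e1 is taken from chr7:140763699-140763818 on the plus strand, Cyp1a2 from chr9:57683656-57683775 on the minus strand, Cyp1b1 from chr17:79715062-79715181 on the minus strand and Por from chr5:135689025-135689144 on the plus strand.
Cyp2e1: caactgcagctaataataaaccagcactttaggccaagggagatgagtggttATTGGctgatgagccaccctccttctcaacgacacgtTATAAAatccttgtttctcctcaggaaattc
Cyp1a2: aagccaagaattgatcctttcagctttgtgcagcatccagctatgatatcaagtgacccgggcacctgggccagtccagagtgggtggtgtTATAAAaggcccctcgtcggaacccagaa
Cyp1b1: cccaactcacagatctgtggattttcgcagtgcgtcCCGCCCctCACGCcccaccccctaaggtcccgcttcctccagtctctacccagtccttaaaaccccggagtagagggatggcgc
Por: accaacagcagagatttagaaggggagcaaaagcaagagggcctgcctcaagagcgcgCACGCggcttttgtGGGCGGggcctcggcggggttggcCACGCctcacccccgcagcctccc

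Of the 10 genes, 9 had a promoter in the RefSeq table, and Cyp7b1 had none. Within 250 bases before the start, the TATA box letters were found in 5 of the 9, namely Cyp2e1, Cyp1a2, Cyp2c29, Cyp2d9 and Cyp3a11, and in 12.4% of 32851 mouse promoters. The Ahr core was found in Cyp1b1 and Por, and in 28.2% of all promoters, and the GC box in Cyp1b1, Por and Cyp3a11, and in 32.7%. The CCAAT box was found in Cyp2e1 and Cyp3a13, and in 33.8% of all. The GC content of the same window was 65.6% for Por and 58.0% for Cyp1b1, and 32.8% for Cyp2c29, with a median of 52.4% over all promoters. In the printed stretches no match overlapped another. A match to these letters describes the sequence and was not tested as a binding site.

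Cyp2e1 (NM_021282, mm10 chromosome 7, 140763832 to 140774977), the P450 that activates CCl4, was the most abundant of the genes in HSCs and in NASH-fib. Its values in replicates 1, 2 and 3 were 3499, 3423 and 10367 for HSCs, 377, 205 and 84.9 for CCl4-fib and 3779, 2043 and 3652 for NASH-fib. The CCl4-fib libraries all lay below those of both other groups, which overlapped with each other. Against HSCs the log2 fold change was -4.73 (standard error, SE, 0.59, adjusted p = 0.000294, limma) in CCl4-fib, a 26.5-fold lower level. In NASH-fib it was -0.71 (SE 0.59, adjusted p = 0.582, limma). NASH-fib exceeded CCl4-fib by 4.01 (SE 0.59, adjusted p = 0.00811, limma), which is 16.2-fold. Both calls held when any 1 of the 9 libraries was left out, and both were lost when the mean level of the hepatocyte markers entered the fit as a term, with values of -3.49 (SE 1.25, adjusted p = 0.244, limma) and 3.14 (SE 0.98, adjusted p = 0.391, limma). Of all genes tested, that fit called 0.667% in the former comparison and none in the latter, where 1380 genes had an unadjusted p under 0.05, so the loss was not particular to Cyp2e1.

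Cyp1a2 (NM_009993, mm10 chromosome 9, 57676937 to 57683655), which oxidizes caffeine and aromatic amines and is a known target of Ahr, was low in the fibroblasts of both models. HSC libraries had values of 148, 211 and 996, CCl4-fib libraries 15.9, 16.2 and 14.3, and NASH-fib libraries 13.6, 9.80 and 40.3. All fibroblast libraries lay below all HSC libraries, and those of the 2 models overlapped. The log2 fold change against HSCs was -4.27 (SE 0.74, adjusted p = 0.00193, limma) in CCl4-fib and -4.08 (SE 0.74, adjusted p = 0.00407, limma) in NASH-fib. Leaving out any 1 library kept both calls. With the hepatocyte term the NASH-fib value was -3.12 (SE 0.59, adjusted p = 0.0106, limma) and that of CCl4-fib was -0.96 (SE 1.10, adjusted p = 0.702, limma). NASH-fib and CCl4-fib differed by 0.18 (SE 0.74, adjusted p = 0.887, limma), and by -0.39 without NASH-fib replicate 3. The relative Cyp1a1, with which Cyp1a2 shares 7.09% of its 36-base stretches, had at most 45.2 in any library and was not called in any comparison. Of the regulators Ahr and Arnt, neither was called in any of the 3 comparisons, with Ahr at 219 to 252 in HSCs, 98.4 to 227 in CCl4-fib and 188 to 431 in NASH-fib.

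Cyp2c29 (NM_007815, mm10 chromosome 19, 39287085 to 39330713), a pericentral epoxygenase and drug oxidase, showed the largest difference among the 10 genes. It had 1035, 575 and 4884 in the HSC libraries, 0, 8.51 and 14.3 for CCl4-fib and 261, 19.6 and 192 for NASH-fib. The 3 groups did not overlap, with NASH-fib between the others. The log2 fold change of CCl4-fib against HSCs was -8.08 (SE 1.22, adjusted p = 0.000899, limma), held without any 1 library. NASH-fib differed from HSCs by -3.82 (adjusted p = 0.0718, limma) and from CCl4-fib by 4.27 (adjusted p = 0.0503, limma), neither of which was called. The first of these was called without CCl4-fib replicate 1 or NASH-fib replicate 1, and the second without HSC replicate 2, HSC replicate 3 or NASH-fib replicate 2. Over the fits with 1 library left out, the first ran from -4.50 to -2.67 and the second from 3.07 to 5.42. Cyp2c29 overlaps the pseudogene Cyp2c53-ps over 142 exon bases.

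The Cyp3a genes encode oxidases of a wide range of drugs and steroids, which the pregnane X receptor (Nr1i2) induces. Cyp3a11 (NM_007818, mm10 chromosome 5, 145854607 to 145879854) had values of 2282, 3311 and 11200 for HSCs, 84.1, 57.8 and 58.2 for CCl4-fib and 3934, 108 and 733 for NASH-fib. The CCl4-fib libraries were below all others, and NASH-fib replicates differed widely, with replicate 1 within the range of HSCs. In CCl4-fib against HSCs the log2 fold change was -6.04 (SE 1.05, adjusted p = 0.00199, limma), a call kept without any 1 library. In NASH-fib against HSCs it was -2.69 (adjusted p = 0.147, limma), a difference called only without NASH-fib replicate 1, and the fits without 1 library ran from -3.96 to -1.37. NASH-fib against CCl4-fib gave 3.35 (adjusted p = 0.0687, limma), with 2.08 to 4.67 when 1 library was left out, called without NASH-fib replicate 2 and with edgeR and DESeq2. Cyp3a11 shares 28.3% of its 36-base stretches with other genes, the most with Cyp3a41a, so its reads may be split among them.

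Cyp3a13 (NM_007819, mm10 chromosome 5, 137892933 to 137921619), which shares no such stretch with another gene, had 65.5, 386 and 386 for HSCs, 7.94, 2.55 and 39.1 for CCl4-fib and 442, 27.6 and 300 for NASH-fib. Its CCl4-fib libraries were below those of HSCs, and NASH-fib replicate 2 was below CCl4-fib replicate 3. The log2 fold change of -4.31 (SE 1.17, adjusted p = 0.0202, limma) in CCl4-fib was not called without either of HSC replicates 2 and 3 or of CCl4-fib replicates 1 and 2, with values of -5.25 to -3.51 over the 9 such fits. The difference of NASH-fib from HSCs was -0.46 (adjusted p = 0.904, limma), and it turned to 0.76 without NASH-fib replicate 2. Against CCl4-fib, NASH-fib had 3.85 (adjusted p = 0.0609, limma), called only without NASH-fib replicate 2 among those fits.

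Cyp2d9 (NM_010006, mm10 chromosome 15, 82452377 to 82456827), a male-biased steroid hydroxylase, had values of 188, 56.8 and 3053 for HSCs, 19.1, 14.5 and 16.2 for CCl4-fib and 14.95, 45.4 and 249 for NASH-fib. HSC replicate 3 stood far above the other HSC libraries, while the CCl4-fib libraries lay close together. Cyp2d9 was called lower in CCl4-fib with a log2 fold change of -4.20 (SE 1.31, adjusted p = 0.0363, limma). This call was lost without HSC replicate 1, HSC replicate 3 or any 1 of the CCl4-fib libraries, the values running from -5.44 to -2.58. The differences of NASH-fib were -2.50 from HSCs (adjusted p = 0.313, limma) and 1.70 from CCl4-fib (adjusted p = 0.418, limma). Without 1 library they ran from -3.74 to -0.88 and from 0.64 to 2.62 with no call, and DESeq2 called the former. Of its 36-base stretches 41.4% occur in other genes, chiefly of the Cyp2d family, so the count of this gene is uncertain.

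Cyp2f2 (NM_007817, mm10 chromosome 7, 27119955 to 27133660), the periportal gene of the set, which bioactivates naphthalene, had 112, 84.5 and 173 for HSCs, 15.9, 13.6 and 13.4 for CCl4-fib and 59.8, 25.8 and 681 for NASH-fib. NASH-fib libraries were all above those of CCl4-fib, and replicate 3 was above every HSC library. The log2 fold change in CCl4-fib was -2.97 against HSCs (SE 0.96, adjusted p = 0.0411, limma), and the call was lost when any 1 HSC or CCl4-fib library was left out (-3.20 to -2.69 over all 9 such fits), and also with the library name prefix as a term, with a pseudocount of 8 and without the trend. In NASH-fib it was -0.20 against HSCs (adjusted p = 0.954, limma), with a sign that turned to positive with edgeR and DESeq2 and without HSC replicate 3 or NASH-fib replicate 1 or 2 (-1.56 to 0.77). Against CCl4-fib it was 2.77 (adjusted p = 0.0905, limma), called only without NASH-fib replicate 2 among the fits that left out 1 library (1.41 to 3.74). The antisense gene Gm15883 covers 274 exon bases of Cyp2f2, and reads of both strands were counted.

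Cyp1b1 (NM_009994, mm10 chromosome 17, 79706953 to 79715041), which oxidizes oestrogens and polycyclic aromatic hydrocarbons, was high in the fibroblasts of both models. It had 5.84, 43.7 and 2.39 for HSCs, 1047, 1407 and 1538 for CCl4-fib and 371, 232 and 305 for NASH-fib. The groups did not overlap, and HSC replicate 3 had no more than 3 reads. The log2 fold change against HSCs was 7.02 (SE 0.77, adjusted p = 0.000124, limma) in CCl4-fib and 4.88 (SE 0.77, adjusted p = 0.00176, limma) in NASH-fib. NASH-fib lay below CCl4-fib by -2.14 (SE 0.77, adjusted p = 0.0996, limma), which was called without HSC replicate 2 and not otherwise among the fits without 1 library, where it ran from -2.30 to -1.96. Both increases over HSCs held in all 9 such fits. With the hepatocyte term, the increase in NASH-fib was 4.64 (SE 0.91, adjusted p = 0.0121, limma), and that in CCl4-fib was 6.19 (SE 1.68, adjusted p = 0.119, limma).

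Cyp7b1 (NM_007825, mm10 chromosome 3, 18071950 to 18243338), the oxysterol hydroxylase of the alternative route of bile acid synthesis, was higher in CCl4-fib than in both other groups. Its values were 60.8, 156 and 127 for HSCs, 340, 469 and 215 for CCl4-fib and 88.4, 81.1 and 39.3 for NASH-fib. Every CCl4-fib library was above every library of the other groups, which overlapped. Against HSCs the log2 fold change was 1.60 (SE 0.50, adjusted p = 0.0373, limma) in CCl4-fib and -0.69 (SE 0.50, adjusted p = 0.514, limma) in NASH-fib. NASH-fib was lower than CCl4-fib by -2.29 (SE 0.50, adjusted p = 0.0222, limma). The increase in CCl4-fib was not called without HSC replicate 1, HSC replicate 3, CCl4-fib replicate 1 or CCl4-fib replicate 2 (1.20 to 1.90), nor with edgeR or the name prefix as a term. The difference between the fibroblasts was not called without NASH-fib replicate 3 or either of CCl4-fib replicates 1 and 2 (-2.59 to -1.93), nor with the prefix term.

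Por (NM_008898, mm10 chromosome 5, 135689145 to 135735326), the reductase that supplies microsomal P450 enzymes with electrons, had values of 56.1, 48.1 and 146 for HSCs, 702, 362 and 177 for CCl4-fib and 27.2, 137 and 81.6 for NASH-fib. The CCl4-fib libraries were above all others, though they spanned a wide range and their lowest value was close to the highest one of HSCs. The log2 fold change was 2.26 (SE 0.70, adjusted p = 0.0352, limma) in CCl4-fib against HSCs, -0.12 (adjusted p = 0.966, limma) in NASH-fib against HSCs, where it was -0.62 to 0.52 with 1 library left out and positive without HSC replicate 3 or NASH-fib replicate 1, and -2.38 (adjusted p = 0.0547, limma) in NASH-fib against CCl4-fib. The first was not called without HSC replicate 1, HSC replicate 2, CCl4-fib replicate 1 or CCl4-fib replicate 2 (1.78 to 2.76), nor with the replicate number or the name prefix as a block. The last was called without HSC replicate 2, HSC replicate 3 or NASH-fib replicate 2 (-2.89 to -1.74), with DESeq2 and with a pseudocount of 8.

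Of 10 genes of electron supply and haem, Por included, 2 were higher and 2 lower in CCl4-fib than in HSCs. Their median log2 fold change was -0.42. Over all genes tested 16.2% were called higher and 11.7% lower, with a median of 0.18. The counts of these 10 genes thus lie close to the shares over all genes. The other gene that rose was Fdxr, the ferredoxin reductase of mitochondrial P450 enzymes, with 4.68, 10.2 and 10.8 in HSCs and 94.5, 114.8 and 39.1 in CCl4-fib, a difference of 3.07 on the log2 scale (SE 0.68, adjusted p = 0.00727, limma). In NASH-fib it had 1.36, 6.23 and 1.97, lower than in CCl4-fib by -4.37 (SE 0.68, adjusted p = 0.00863, limma). Its partner Fdx1, the ferredoxin, fell by 2.75 (adjusted p = 0.0126, limma) in CCl4-fib, and the cytochrome b5 gene Cyb5b fell by 1.01 (adjusted p = 0.0352, limma). In NASH-fib the only called gene against HSCs was Hmox1, which encodes the haem-degrading haem oxygenase, with -2.69 (adjusted p = 0.0219, limma). Over all genes 4.3% were called lower in this comparison, and 5.66% were called lower in NASH-fib than in CCl4-fib.

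The library names carry a prefix whose meaning the labels do not state, and only 1 prefix occurs in all groups, with 1 library each, too few for a comparison within it. With the prefix as a term of the limma fit, 7 of the 10 genes were called in CCl4-fib against HSCs, 2 in NASH-fib against HSCs and 1, Cyp2e1, in NASH-fib against CCl4-fib, and Cyp2f2, Cyp7b1 and Por lost their calls in the first of these. The same fit called 18.1%, 4.89% and 4.34% of all genes. Single libraries also moved the counts. In CCl4-fib against HSCs 5 genes were called without CCl4-fib replicate 1 or 2 and 6 without HSC replicate 1 or 3, while the count over all genes was 2548, 2446, 2829 and 3967 in this order, in place of 3801. In NASH-fib against HSCs 4 were called without NASH-fib replicate 1, with 1993 over all genes in place of 1711. In NASH-fib against CCl4-fib 1 was called without NASH-fib replicate 3 or either of CCl4-fib replicates 1 and 2, while 4 were called without HSC replicate 3, 5 without HSC replicate 2 and 7 without NASH-fib replicate 2. Over all genes this comparison had 1451 calls, which dropped to 532 and 212 when the first or the second CCl4-fib library was omitted. Omitting the second or the third of NASH-fib gave 1804 and 269, and omitting the second or the third of HSCs 1786 and 1461. In CCl4-fib against HSCs, the 5 that kept their call in all 9 such fits were Cyp2e1, Cyp1a2, Cyp2c29, Cyp3a11 and Cyp1b1.

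As the hepatocyte markers moved with the P450 genes, each gene was also expressed relative to the mean log2 level of the 15 markers in its own library. On this log2 scale Cyp2e1 stood at 2.15 to 2.47 in HSCs, 1.66 to 3.26 in NASH-fib and -0.64 to 2.21 in CCl4-fib. Its ranges in HSCs and NASH-fib overlapped. Cyp1a2 stood at -2.08 to -0.92 in HSCs and -5.16 to -4.31 in NASH-fib, which lay apart, also with Alb alone, with a pseudocount of 8 or with the 6 markers that stayed under 1 read per base. In CCl4-fib it stood at -3.13 to -2.27, between the others, and overlapped with HSCs when Alb alone or a pseudocount of 8 was used. Cyp2c29 was lower in CCl4-fib than in HSCs, with a mean difference of -4.83, and so was Cyp3a11, with -2.79, both apart from HSCs under each of these 4 settings. Cyp2d9, Cyp2f2 and Cyp3a13 overlapped with HSCs in both fibroblast groups, except Cyp2f2 with Alb alone, which was higher in CCl4-fib. Cyp1b1, Cyp7b1 and Por were above HSCs in every CCl4-fib library under all 4 settings, and Cyp1b1 also in every NASH-fib library. No test was made on these relative levels. When the mean level of the 15 markers entered the limma fit as a term, 2 of the 10 genes, Cyp1a2 and Cyp1b1, were called in NASH-fib against HSCs and 0 in each of the other comparisons, where 2 genes each had an unadjusted p under 0.05. The same fit called 0.667% of all genes in CCl4-fib against HSCs, 8.47% in NASH-fib against HSCs and none in NASH-fib against CCl4-fib, so the missing calls are not a result about these 10 genes.

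**Figure D3:**
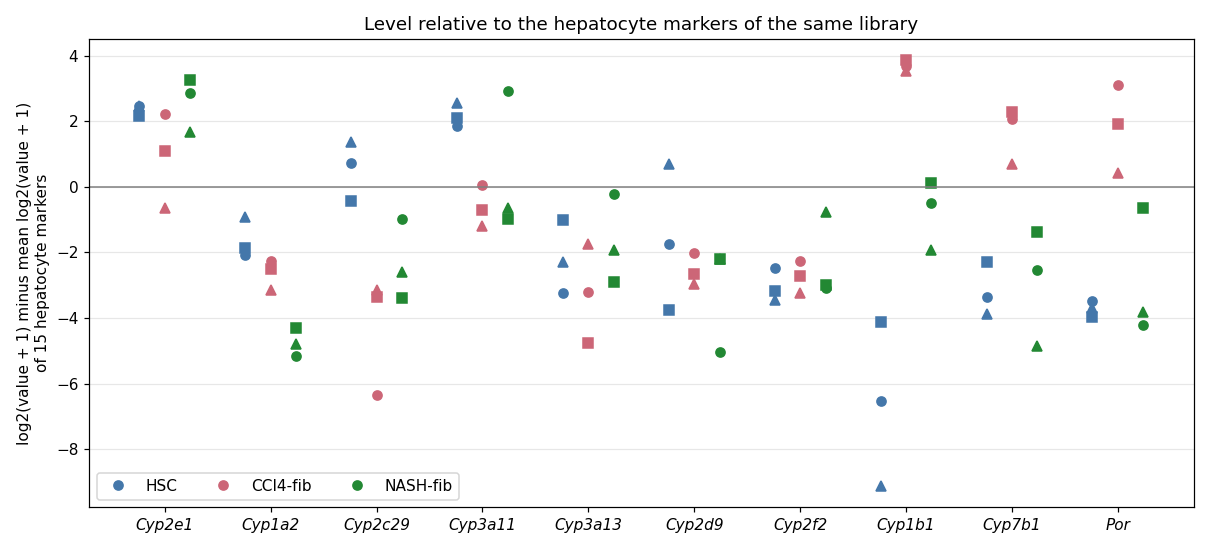
Log2(value + 1) of each gene minus the mean log2(value + 1) of 15 hepatocyte markers in the same library (y axis), by gene and group, with circles, squares and triangles for replicates 1, 2 and 3. Cyp1a2 is lowest in the NASH-fib libraries, at -5.16 to -4.31, and Cyp1b1, Cyp7b1 and Por are highest in CCl4-fib.

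Ratios within a library compare the genes with each other independently of the total. They were chosen after the values had been seen and are given without a test. Per kb of exon, Cyp1a2 amounted to 3.89%, 5.65% and 8.80% of Cyp2e1 in the HSC libraries, to 3.86%, 7.22% and 15.4% in CCl4-fib and to 0.329%, 0.440% and 1.01% in NASH-fib. The NASH-fib libraries were thus below all others. Cyp2e1 and Cyp1a2 are both pericentral genes, and the part of zonation in this ratio was not tested. The periportal Cyp2f2 amounted to 3.06%, 2.35% and 1.60% of Cyp2e1 in HSCs and to 4.02%, 6.34% and 15% in CCl4-fib, with all CCl4-fib libraries above HSCs. In NASH-fib it was 1.51%, 1.21% and 17.8%, replicate 3 being the highest of the 9 libraries. Cyp3a11 amounted to 55.2%, 81.9% and 91.4% for HSCs, 18.9%, 23.9% and 58.0% for CCl4-fib and 88.1%, 4.47% and 17.0% for NASH-fib, which spanned the ranges of both other groups. High Cyp2e1 and Cyp3a11 values are flattened, and the Cyp1a2 values of NASH-fib replicates 1 and 2 rest on 10 and 11 reads, which limits these ratios.

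**Figure D4:**
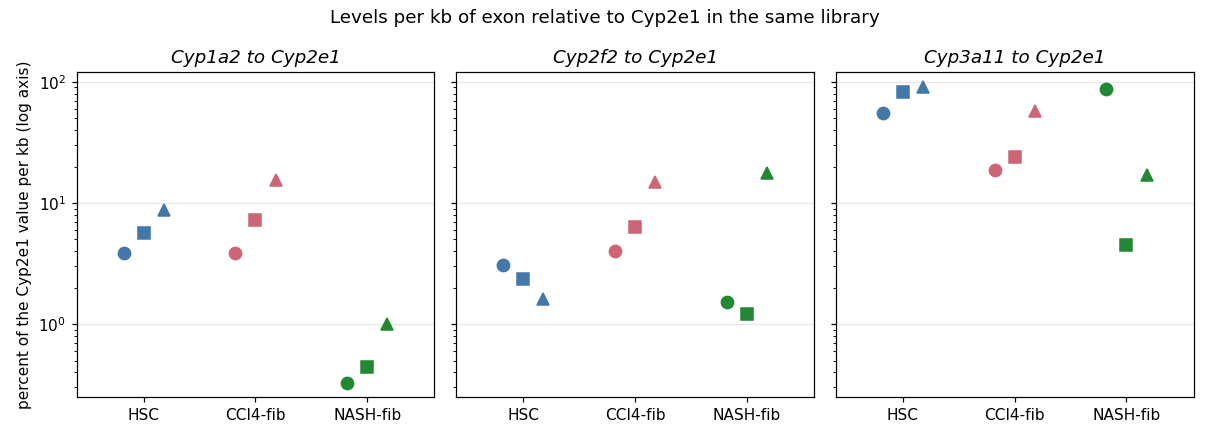
Value per kb of exon of Cyp1a2, Cyp2f2 and Cyp3a11 as a percent of that of Cyp2e1 in the same library (log axis), by group, with circles, squares and triangles for replicates 1, 2 and 3. For Cyp1a2 the NASH-fib libraries lie at 0.329% to 1.01%, below all HSC and CCl4-fib libraries.

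Among all 99 P450 genes deposited, 59 passed the filter, and the others had too few reads. A gene that passes only through HSCs has to be lower elsewhere, so the counts over the 59 are a description. In CCl4-fib 37 were lower and 3 higher than in HSCs, with a median log2 fold change of -4.24. Over all genes tested 11.7% were called lower and 16.2% higher, with a median of 0.18. In families 1 to 3, which hold most drug-oxidizing forms, 27 of 38 were lower and 2 higher, and in family 4, whose members hydroxylate fatty acids, 7 of 13 were lower (limma). At an unadjusted p under 0.05 the 59 genes held 45 changes, and edgeR called 44. Over all genes 5457 had such a p, and edgeR called 3592, against 3801 with limma. The largest decrease was that of Cyp2c37, with 348, 518 and 2313 in HSCs and at most 3 reads in CCl4-fib, where it was at least 408-fold lower, or at least 167-fold without HSC replicate 3. Cyp4a12a, a male-biased fatty acid hydroxylase, had 138, 67.0 and 1048 in HSCs and was at least 161-fold lower, or at least 39.4-fold without HSC replicate 3. With the hepatocyte marker term limma called 0 of the 59, with 5 at an unadjusted p under 0.05, and 0.667% of all genes. The 3 higher genes were Cyp1b1, Cyp2s1 and Cyp7b1. Cyp2s1, a P450 of extrahepatic epithelia that metabolizes retinoids, had 37.4, 37.9 and 13.2 for HSCs, 241, 242 and 225 for CCl4-fib and 269, 401 and 390 for NASH-fib, with log2 fold changes of 3.10 (adjusted p = 0.000697, limma) and 3.66 (adjusted p = 0.000399, limma).

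In NASH-fib 8 of the 59 were lower and 2, Cyp1b1 and Cyp2s1, higher than in HSCs, with a median of -1.53. Over all genes 4.3% were called lower and 8.23% higher, with a median of -0.02. Besides Cyp1a2, the lower genes were led by Cyp2c37 with -5.62 (adjusted p = 0.0303, limma), Cyp2a5, a coumarin hydroxylase, with -4.92 (adjusted p = 0.02, limma) and Cyp2c54 with -4.27 (adjusted p = 0.0460, limma). This count fell to 5 genes in all without HSC replicate 3 or NASH-fib replicate 3 and rose to 22 without NASH-fib replicate 1. Over all genes these fits called 1470, 1290 and 1993, in this order, in place of 1711. Between the fibroblasts 9 of the 59 were higher and 1, Cyp7b1, lower in NASH-fib, with a median of 1.97. The shares over all genes were 4.97% higher and 5.66% lower, with a median of -0.11. Cyp4a12a, Cyp2c38 and Cyp4a10, the last a target of Ppara, had no more than 3 reads in any CCl4-fib library and were higher in NASH-fib by at least 92.4-fold, 38.2-fold and 45.5-fold, in this order. Cyp4a12a had 174, 29.4 and 517 in NASH-fib, Cyp2c38 205, 25.8 and 66.8 and Cyp4a10 158, 5.34 and 192. Without the highest library the bounds were 39.1-fold, 17.8-fold and 31.4-fold. Here edgeR called 21 and DESeq2 35 of these genes, against 10 with limma. Over all genes edgeR called 1365 and DESeq2 2679, against 1451 with limma. Leaving out 1 library gave 2 (without NASH-fib replicate 3 or CCl4-fib replicate 2), 5 (CCl4-fib replicate 1), 6 (NASH-fib replicate 1 or CCl4-fib replicate 3) or 29 (NASH-fib replicate 2) and otherwise 9 to 14. These fits called 269, 212, 532, 684, 695 and 1804 of all genes, in the order named, and otherwise 1132 to 1786.

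**Figure D5:**
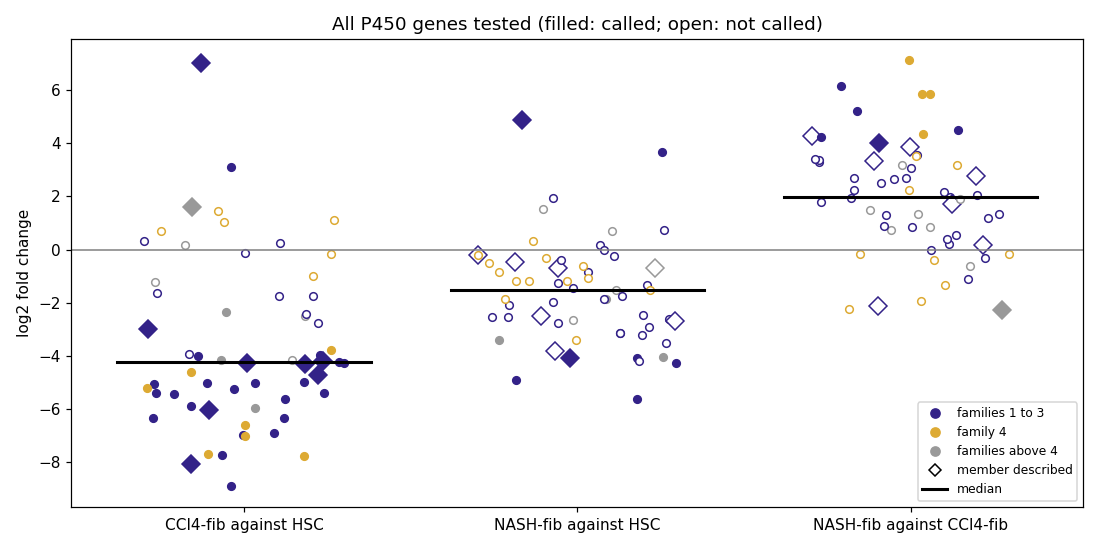
Log2 fold change (y axis) of the 59 P450 genes tested in each comparison, coloured by family, filled where called, with diamonds for the 9 P450 genes described and a bar for the median. The medians are -4.24, -1.53 and 1.97 from left to right, and Cyp1b1 is the highest point in both comparisons with HSCs.

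Of 16 nuclear receptors and other regulators of P450 genes, 10 passed the filter, and 4 were lower in CCl4-fib than in HSCs (limma). Over all genes 11.7% were called lower in this comparison. Against HSCs, NASH-fib had 1 lower regulator, and against CCl4-fib 2 higher, beside 4.3% and 4.97% of all genes. Hnf4a, the master regulator of hepatocyte genes, had 78.3, 434 and 191 for HSCs, 3.17, 21.3 and 11.5 for CCl4-fib and 124, 35.6 and 108 for NASH-fib. Its log2 fold change was -4.16 (adjusted p = 0.00334, limma) in CCl4-fib against HSCs and 2.92 (adjusted p = 0.0431, limma) in NASH-fib against CCl4-fib. Ppara, the fatty acid receptor that drives Cyp4a genes, followed with -3.68 (adjusted p = 0.00223, limma) and 2.89 (adjusted p = 0.0241, limma). The bile acid receptor Nr1h4 was lower than in HSCs in both models, by -3.12 in CCl4-fib (adjusted p = 0.00208, limma) and -3.31 in NASH-fib (adjusted p = 0.00250, limma), with 4554, 1038 and 3117 in HSCs. Nr1i2, which regulates Cyp3a genes, did not pass the filter, and Nr1i3, the constitutive androstane receptor, was not called, with -2.96 (adjusted p = 0.0987, limma) in CCl4-fib.

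Genes of the lobule's zones other than the 10 genes moved in CCl4-fib from both zones. Of 11 pericentral genes tested, 4 were lower in CCl4-fib than in HSCs, and of 10 periportal genes 6 were lower (limma). Their medians were -0.94 and -3.24. Over all genes tested 11.7% were called lower, with a median of 0.18. The pericentral Rgn, which takes part in ascorbate synthesis, had -4.94 (adjusted p = 0.00296, limma), and the periportal G6pc, the last enzyme of glucose release, had -6.64 (adjusted p = 0.00142, limma). In NASH-fib against HSCs the called gene of these lists was the pericentral Tbx3, a transcription factor, with 3.29 (adjusted p = 0.0302, limma). Over all genes 8.23% were called higher and 4.3% lower here. Against CCl4-fib, NASH-fib had 2 higher pericentral genes, Rgn (4.23) and the glutamine synthetase gene Glul (1.83). It also had 5 higher periportal genes, among them G6pc (5.16), Hsd17b13 (4.85) and the urea cycle gene Cps1 (3.71). The share of all genes called higher between the fibroblasts was 4.97%. Over the same comparisons 12 of the 15 hepatocyte markers were lower in CCl4-fib than in HSCs, 1 was lower in NASH-fib than in HSCs and 6 were higher in NASH-fib than in CCl4-fib, and their part in the zonation values was not tested.

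The genes whose pattern over the 9 libraries was most like that of Cyp2e1, by Pearson's r of log2(value + 1), were Ackr2 (0.981), Als2cl (0.981), Mtm1 (0.972), Ugt3a2 (0.966) and the hepatocyte glucose transporter gene Slc2a2 (0.964). For Cyp1b1 they were Tmeff2 (0.991), Fam110c (0.991), the collagen gene Col1a1 (0.987), Aste1 (0.986) and Cyb561 (0.984). The 9 libraries fall into 3 groups that differ in depth and marker content, so these values are descriptions. Among the 10 genes themselves, r between Cyp2e1 and Cyp3a11 was 0.88, between Cyp2c29 and Cyp3a11 0.92, between Cyp1a2 and Cyp1b1 -0.90 and between Cyp7b1 and Por 0.71.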

How the data were processed

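The values deposited by the authors are a normalized signal per gene and library. SMARTer-amplified RNA was sequenced single-end, and the authors aligned the reads to mm10 with STAR and counted them on RefSeq exons with HOMER. Per the file headers, both strands were counted, at most 3 reads per position were kept, the transcripts of a gene were condensed and a DESeq2 normalization was run on 10 libraries, of which 9 are columns here. Versions of STAR and HOMER, and how reads with several matches were treated, are not given in the sources used here. All value columns were used (0 unused), and 100% of the values came out as whole reads within 0.02 of 1 read. RNA amplified without molecular identifiers does not give independent molecules, so the worth of 3 reads as a detection limit covers counting error only. Samples were grouped by their titles, and pools of mice are the replicates.

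Here limma 3.58.1 in R 4.3.3 was fitted on log2(value + 1) with a trend, all 9 libraries in a single model, for genes kept by filterByExpr of edgeR 4.0.16 (minimum count 10). Fold changes on this scale understate changes of low genes. A fold against a group with at most 3 reads in every library was computed from the floor. With 3 libraries against 3 an exact permutation test cannot go below p = 0.1. The script was tested on simulated data. Shared stretches of 36 bases were counted in GENCODE transcripts of GRCm38. The genes and lists were chosen with earlier results of these data known. Named by rule were the 10 genes, the 3 called genes of largest change per direction and comparison in the lists of electron partners, regulators, zones and P450 genes, and the 5 genes most like Cyp2e1 and Cyp1b1. Cyp1a1, Ahr, Arnt, Nr1i2, Nr1i3 and the genes named only in the closing section were named after their values were seen. Alternatives were edgeR, DESeq2 1.42.0, other normalization, filter, pseudocounts, spread and samples, blocks for replicate number or name prefix, and the hepatocyte markers as a term. Replicate numbers did not pair the libraries. The result of 1 gene outside the described set, and of 1 list that holds it in the comparisons of NASH-fib, is not reported here.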

Additional observations from a re-analysis of the deposited data

Results flagged for a closer look

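Effects against HSCs that differed between the fibroblast models were found for 2 of the 10 genes, by the limma test of NASH-fib against CCl4-fib itself. Cyp2e1 was 4.01 higher on the log2 scale in NASH-fib than in CCl4-fib, with every NASH-fib library above every CCl4-fib library. Cyp7b1 differed by -2.29, with every NASH-fib library below every CCl4-fib library. The libraries of these groups lay apart upward for 17.1% and downward for 22% of all genes tested. Over all genes tested 4.97% were called higher and 5.66% lower in this comparison.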

How the results depend on the processing

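The count of the 10 genes called was 10 in CCl4-fib against HSCs, 2 in NASH-fib against HSCs and 2 in NASH-fib against CCl4-fib, and of the 59 P450 genes 40, 10 and 10. With a term for the 15 hepatocyte markers the counts were 0, 2, 0 and 0, 4, 0 (limma), and with a term for the 6 markers under 1 read per base, chosen after seeing the data, again 0, 2, 0 and 0, 4, 0. Over all 13651 genes the first term left 91, 1156 and 0 calls and the second 115, 895 and 0, against 3801, 1711 and 1451 without a term, and where the count was 0, 1380 and 2044 genes had an unadjusted p under 0.05. For the P450 counts of 0, an unadjusted p under 0.05 was reached by 2 of the 10 and 5 P450 genes in CCl4-fib against HSCs with either term, and in NASH-fib against CCl4-fib by 2 and 3 with the first term and by 4 and 6 with the second. In CCl4-fib against HSCs edgeR called 9 and 44 and DESeq2 10 and 46. DESeq2 called 4 of the 10 genes in NASH-fib against HSCs, and 8 and 35 in NASH-fib against CCl4-fib. In the latter, edgeR called 6 and 21, and a pseudocount of 8 gave 4 of the 10 genes. Over all genes DESeq2 called 4583, 2157 and 2679 in the 3 comparisons, and edgeR 3592, 1576 and 1365. The pseudocount of 8 gave 1800 in the last of them. In NASH-fib against HSCs the P450 count was 6 with edgeR, 5 with the 2 groups alone and 5 with the prefix block. The prefix block gave 1 and 5 in NASH-fib against CCl4-fib. Over all genes the 2 groups alone gave 1178 calls in the former comparison. The prefix block gave 668 there and 593 in the latter. Leaving out 1 library gave 5 to 10, 2 to 4 and 1 to 7 of the 10 genes, and 31 to 44, 5 to 22 and 2 to 29 P450 genes. The counts over all genes then ran from 2446 to 4872, from 1258 to 1993 and from 212 to 1804. The replicate block called 9, 2 and 2 of the 10 genes and 41, 8 and 9 P450 genes, beside 3312, 1487 and 929 of all genes. Same-numbered libraries had deviations correlated at -0.473 to 0.514. Libraries that share a name prefix were at -0.171 to 0.04, except HSC replicate 2 and NASH-fib replicate 1 at 0.645, the highest of all. Libraries that share neither were at -0.588 to 0.347.

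Directions turned with the hepatocyte term and with that of the 6 markers for Cyp2d9 (0.83 and 1.23) and Cyp2f2 (1.44 and 1.63) in CCl4-fib against HSCs, for Cyp1a2 (-2.16 and -1.85) and Cyp2d9 (-1.86 and -1.42) in NASH-fib against CCl4-fib, and for Cyp2f2 (1.08 and 1.75) and Cyp3a13 (0.92 and 1.11) in NASH-fib against HSCs. With the hepatocyte term alone they turned for Cyp3a13 in CCl4-fib against HSCs (0.44) and Cyp2f2 in NASH-fib against CCl4-fib (-0.35), and with the 6 markers for Por in NASH-fib against HSCs (0.09). In NASH-fib against HSCs they also turned for Cyp2f2 with edgeR (1.14) and DESeq2 (1.13) and for Cyp3a13 with edgeR (0.00) and DESeq2 (0.02). Without 1 library the values ran from -1.56 to 0.77 for Cyp2f2, from -1.31 to 0.76 for Cyp3a13 and from -0.62 to 0.52 for Por in NASH-fib against HSCs, and from -0.39 to 0.58 for Cyp1a2 in NASH-fib against CCl4-fib. The cause of these changes was not tested. Low values limit Cyp1b1 in HSCs and Cyp2c29 in CCl4-fib, where single reads weigh.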

Other observations

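Counts are also given for other enzymes of drug metabolism, to be read beside 11.7% of all genes lower and 16.2% higher in CCl4-fib than in HSCs, 4.3% and 8.23% in NASH-fib than in HSCs, and 5.66% and 4.97% in NASH-fib than in CCl4-fib. Of 24 further genes of oxidation and reduction tested, 11 were lower and 1 higher in CCl4-fib than in HSCs, 3 lower and 2 higher in NASH-fib than in HSCs, and 10 higher in NASH-fib than in CCl4-fib (limma). Fmo2, a flavin monooxygenase, was high in the fibroblasts of both models, with 247, 192 and 127 for HSCs, 2423, 2422 and 3023 for CCl4-fib and 14903, 7932 and 11744 for NASH-fib, and it was called higher in NASH-fib than in CCl4-fib by 2.10 (adjusted p = 0.0114, limma). Of 31 conjugation genes tested, 12 were lower and 3 higher in CCl4-fib than in HSCs, 1 lower in NASH-fib than in HSCs, and 3 lower and 7 higher in NASH-fib than in CCl4-fib. Ugt1a1 and Ugt1a6a are among those higher in CCl4-fib and among those lower in NASH-fib than in CCl4-fib. Their values ran in parallel, with 2395, 3360 and 4175 and with 2861, 3876 and 4698 in CCl4-fib. These 2 genes may not be independent, and the sequence they share was not counted.

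Cyp26b1, the enzyme that clears retinoic acid, had 448, 671 and 337 for HSCs, 21.4, 23.8 and 31.5 for CCl4-fib and 62.5, 27.6 and 45.2 for NASH-fib. Its log2 fold changes against HSCs were -4.15 (adjusted p = 0.000120, limma) and -3.42 (adjusted p = 0.000610, limma). Cyp7a1, the rate-limiting enzyme of bile acid synthesis, had 28.1, 51.0 and 154 in HSCs, 0 in all CCl4-fib libraries and 0, 8.02 and 4.91 in NASH-fib. Of 8 genes known to be higher in male liver, 7 were lower in CCl4-fib than in HSCs and 2 were lower in NASH-fib than in HSCs. In NASH-fib 4 of them were higher than in CCl4-fib. Over all genes the shares called in these directions were 11.7%, 4.3% and 4.97%. Of 4 tested genes known to be higher in female liver, 3 were also lower in CCl4-fib than in HSCs. They were Cyp3a41a with -6.35 (adjusted p = 0.00321, limma), Cyp3a41b with -5.23 (adjusted p = 0.00532, limma) and Cyp3a44 with -4.97 (adjusted p = 0.0117, limma). All 3 are relatives of Cyp3a11, which shares 13.3% of its 36-base stretches with Cyp3a41a. Reads of Cyp3a11 may have been counted for such relatives, so these 3 genes may not be independent of it. The sex of the mice behind HSCs and CCl4-fib is not given in the sources used here.

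Markers of other cells moved as well, and their counts stand beside the shares of all genes tested. In CCl4-fib against HSCs 11.7% of all genes were called lower and 16.2% higher. For NASH-fib the shares were 4.3% and 8.23% against HSCs, and 5.66% and 4.97% against CCl4-fib. In CCl4-fib against HSCs, 7 of 12 stellate, 10 of 10 endothelial and 9 of 10 macrophage markers were lower, and 9 of 10 activated fibroblast and 4 of 9 cholangiocyte markers were higher. In NASH-fib against HSCs, 8, 8 and 4 of the first 3 lists were lower, and 7 of 10 and 8 of 9 of the latter were higher, with 1 activated fibroblast marker lower. In NASH-fib against CCl4-fib, 1 stellate, 8 endothelial, 5 macrophage and 5 cholangiocyte markers were higher, and 4 activated fibroblast markers were lower. The part of these cell types in the P450 values was not tested.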
